A study of Mus musculus with 24 samples.

Results

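The immediate early and heat shock genes described here are 35 genes taken by symbol, 23 immediate early genes and 12 heat shock genes. Of these, 34 have a probe named in the platform annotation used here, out of 19057 genes named on the arrays, and Hsp90ab1 is the one without. A gene was followed by 1 probe, the brightest on average among its probes above background in at least 4 of 24 arrays, where above background means a detection p under 0.05 against the negative controls of the array. That left 21 immediate early and 11 heat shock genes. Ier2 and Myc were each above background in 1 array and are given no level. The list was drawn up with earlier results of these data known.

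The arrays measured mononuclear phagocytes sorted from the tibialis anterior muscle of adult mice, either on day 4 after an intramuscular injection of notexin, a snake venom toxin that kills muscle fibres, or from untreated muscle. All cells were CD11b+ Ly6G- NK1.1-. Subset 1 was F4/80low Ly6Chigh, subset 2 F4/80low Ly6Clow, subset 3 F4/80high Ly6Clow Mgl1low and subset 4 F4/80high Ly6Clow Mgl1high, and untreated muscle gave subsets 3 and 4. Each group held 4 arrays, from C57Bl/6 mice (WT), Cx3cr1-/- and Ccl2-/- mice, which lack a chemokine receptor and a monocyte-attracting chemokine in all cells, and Cx3cr1-/-Ccl2-/- mice, in that order wherever 4 values are listed. Per the study's figure legend, the day-4 RNA came from 1 sorting experiment, with 3 mice pooled for each strain. The subsets of a pool thus come from the same mice. The same pooling was taken to hold for the untreated arrays, for which the paper does not state it. The paper also does not state whether untreated and day-4 cells were sorted and hybridised together. The part of such a batch in comparisons of day 4 with untreated muscle was not tested. The strains stand in as replicates of a subset, so the spread within a group includes strain, pool and array. No source used here states whether pools were male or female.

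Immediate early genes are switched on within minutes of a stimulus, without new protein synthesis, by kinases that act on transcription factors already bound to their promoters. Their products include the Fos and Jun proteins, which pair as the AP-1 transcription factor, the zinc finger factors of the Egr family, and phosphatases and RNA-binding proteins that switch the response off again. Heat shock genes are switched on by the factor Hsf1 when proteins unfold, and their products hold or refold other proteins. In macrophages both programmes answer to inflammatory signals and to tissue damage, and both are also known to start while a tissue is minced, warmed with enzymes and sorted. Here the muscle was minced, digested with collagenase B and trypsin-EDTA and sorted for every array, the untreated ones included, and no array analysed here was made without these steps, so the part of digestion and sorting in the levels was not tested.

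The promoters of these genes carry the DNA letters that their factors read, and a few stretches are shown because they belong to the genes whose values follow. They come from the RefSeq promoter table of build GRCm38.p6, which held 28 of the 35 genes, and only the 250 bases before the transcription start were searched, on both strands. For the heat shock genes the letters searched were GAANNTTC and TTCNNGAA, pairs of the unit that Hsf1 binds, and they are in capitals here.
Hspa1a, chr17:34972213-34972300 (minus strand): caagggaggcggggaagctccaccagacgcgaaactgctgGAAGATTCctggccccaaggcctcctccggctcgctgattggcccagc
Hspa1b, chr17:34959295-34959382 (minus strand): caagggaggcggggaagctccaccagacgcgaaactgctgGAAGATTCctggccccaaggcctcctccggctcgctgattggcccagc
Hsph1, chr5:149636337-149636409 (minus strand): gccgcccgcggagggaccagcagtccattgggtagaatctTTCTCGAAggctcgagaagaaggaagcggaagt
Hspe1, chr1:55088051-55088080 (plus strand): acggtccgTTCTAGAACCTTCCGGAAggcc
The stretches of Hspa1a and Hspa1b are the same letter for letter, and 247 of the 250 bases before the 2 starts are identical. The stretch before Hspe1 is cut to 30 bases because it lies within the divergent neighbour gene Hspd1. Its capitals hold 2 overlapping matches to the longer form in which 3 units follow each other. A unit pair was present in 7 of 9 heat shock genes and 3 of 19 immediate early genes in the table, against 14.5% of all genes, and the 3-unit form in Hspd1 and Hspe1 only among the members, against 0.514% of all genes. Whether the matches of the neighbours Hspd1 and Hspe1 are the same letters was not checked. A match is a description of the letters and not a measured binding site.

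For the immediate early genes the cyclic AMP response element TGACGTCA, read by the factor Creb, the Jun-type AP-1 site TGACATCA and the serum response element, read by Srf, are in capitals.
Jun, chr4:95052223-95052307 (minus strand): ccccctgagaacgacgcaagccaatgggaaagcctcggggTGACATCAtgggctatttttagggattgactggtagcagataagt
Btg2, chr1:134079274-134079361 (minus strand): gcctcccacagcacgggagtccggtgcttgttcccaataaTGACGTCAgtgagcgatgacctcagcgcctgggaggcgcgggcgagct
Ppp1r15a, chr7:45526269-45526320 (minus strand): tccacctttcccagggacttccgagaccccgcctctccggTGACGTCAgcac
Dusp1, chr17:26508568-26508655 (minus strand): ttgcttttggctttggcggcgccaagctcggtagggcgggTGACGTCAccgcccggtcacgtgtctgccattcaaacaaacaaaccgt
Zfp36, chr7:28379237-28379326 (minus strand): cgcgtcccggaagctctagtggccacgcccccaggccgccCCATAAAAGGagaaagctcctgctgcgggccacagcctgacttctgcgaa
The letters TGACGTCA stood in 3 of 19 immediate early genes, Btg2, Dusp1 and Ppp1r15a, against 1.77% of all genes. TGACATCA stood in Jun and Klf6, against 3.41%, and the serum response element in Egr2 and Zfp36, against 1.62%. The AP-1 letters TGACTCA were found in Hspa5 alone among the members, against 5.16% of all genes.

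Values below are log2 intensities after background correction and quantile normalization, and an adjusted p is that of limma's moderated test with Benjamini-Hochberg adjustment over all probes tested, called under 0.05. Between 7054 and 18289 probes were above background per array. In all, 4 arrays had fewer than 11000, and they stand apart: day-4 subset 2 from Cx3cr1-/- (7054) and from Cx3cr1-/-Ccl2-/- (10072), day-4 subset 4 from Cx3cr1-/- (9369) and untreated subset 3 from Ccl2-/- (9896). Most sorting markers followed the gates. Clec10a, which encodes Mgl1, was at 13.79 ± 0.11 (SD, n = 4) in untreated subset 4 and 12.28 ± 0.27 in untreated subset 3, Ly6c1 at 9.41 ± 0.17 in day-4 subset 1 and 5.70 ± 0.51 in subset 2, and Adgre1, which encodes F4/80, at 8.25 ± 1.12 in subset 2. Adgre1 was, however, at 11.02 ± 0.33 in subset 1, which was sorted as F4/80low, and at 11.64 ± 0.16 in day-4 subset 3.

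Both groups of genes were highest in the Mgl1high macrophages of untreated muscle. Averaged over the 21 immediate early genes, the arrays of untreated subset 4 read 10.20 ± 0.07 (SD, n = 4), those of untreated subset 3 read 9.80 ± 0.12, and the day-4 groups read from 9.11 ± 0.40 in subset 2 to 9.49 ± 0.08 in subset 1. Averaged over the 11 heat shock genes, untreated subset 4 read 9.90 ± 0.14, untreated subset 3 read 9.55 ± 0.10, and the day-4 groups read from 9.14 ± 0.20 in subset 4 to 9.34 ± 0.38 in subset 2. Gene by gene, 16 of 21 immediate early and 7 of 11 heat shock genes had their highest group mean in untreated subset 4, where 16.6% of all probes above background did. The lowest mean of 13 immediate early and 5 heat shock genes fell in day-4 subset 2, where 30% of probes had theirs. Without the arrays of low detection, 17 and 8 genes were highest in untreated subset 4, where 17% of probes were. In day-4 subset 2, 8 and 0 genes were then lowest, where 20.3% of probes were.

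**Figure D1:**
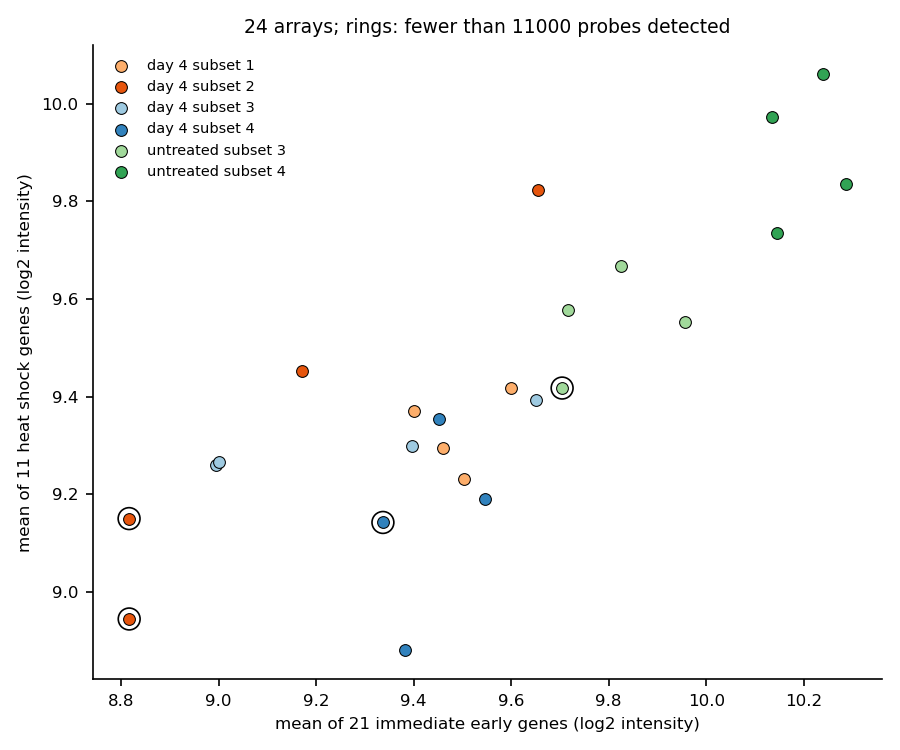
Mean log2 intensity of the 21 immediate early genes (horizontal) against that of the 11 heat shock genes (vertical), 1 point per array, coloured by group, with rings around the arrays in which fewer than 11000 probes were detected. The 4 arrays of untreated subset 4 sit at the upper right, and the means of both lists move together over the 24 arrays (Pearson r = 0.81, Spearman rho = 0.83).

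The means of both lists moved together from array to array, with r = 0.81 and rho = 0.83 over 24 arrays and r = 0.70 and rho = 0.58 after each group's mean was subtracted. These are descriptions, since arrays come from shared pools and were normalized together, and the number of detected probes went with the immediate early mean at r = 0.38 and with the heat shock mean at r = 0.45.

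Untreated subset 4 also had the highest median sums over fibroblast and muscle fibre genes among the 6 groups. Summed over 6 fibroblast genes, the intensity was 1803 to 4291 in its arrays, against 582 to 788 in untreated subset 3 and 675 to 2411 in day-4 subset 4. Over 7 muscle fibre genes it was 596 to 1528, against 238 to 558 and 361 to 513, and 6 of the 7 were above background in all 4 arrays. Untreated subset 3 in turn held the highest sum over 7 eosinophil genes, 381 to 959 against 207 to 281 in day-4 subset 3, with Ccr3 never above background, although per the study's methods Mgl1-negative cells with eosinophil morphology were gated out on day 4. Ccr2 was at 7.91 ± 0.28 there against 6.11 ± 0.35 on day 4. Over 8 neutrophil genes the sum was 197 to 452 outside day-4 subset 2, where it reached 1398 in 1 array, with 1 to 4 of the genes above background in some array of a group and S100a8 and Camp in none. The part of these cells in the results below was not tested, and fewer cells of a type and less RNA per cell cannot be told apart in sorted pools.

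Macrophages of subsets 3 and 4 were next compared between day 4 after notexin and untreated muscle, the question being how the state of the tissue goes with these programmes. Of the 31 members tested, 14 of 20 immediate early and 5 of 11 heat shock genes were lower on day 4, where 6.61% of all probes were lower, and none was higher, where 5.24% were. All 20 immediate early genes had a negative difference. The median difference was -0.65 over the immediate early genes and -0.62 over the heat shock genes, against -0.0006 over all probes tested. With 1 value per pool of mice, the calls of Jund, Fosl2, Btg2, Klf2, Egr3, Hspa1b and Hsph1 remained. Those of all other called members were lost, also where this is not repeated below.

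**Figure D2:**
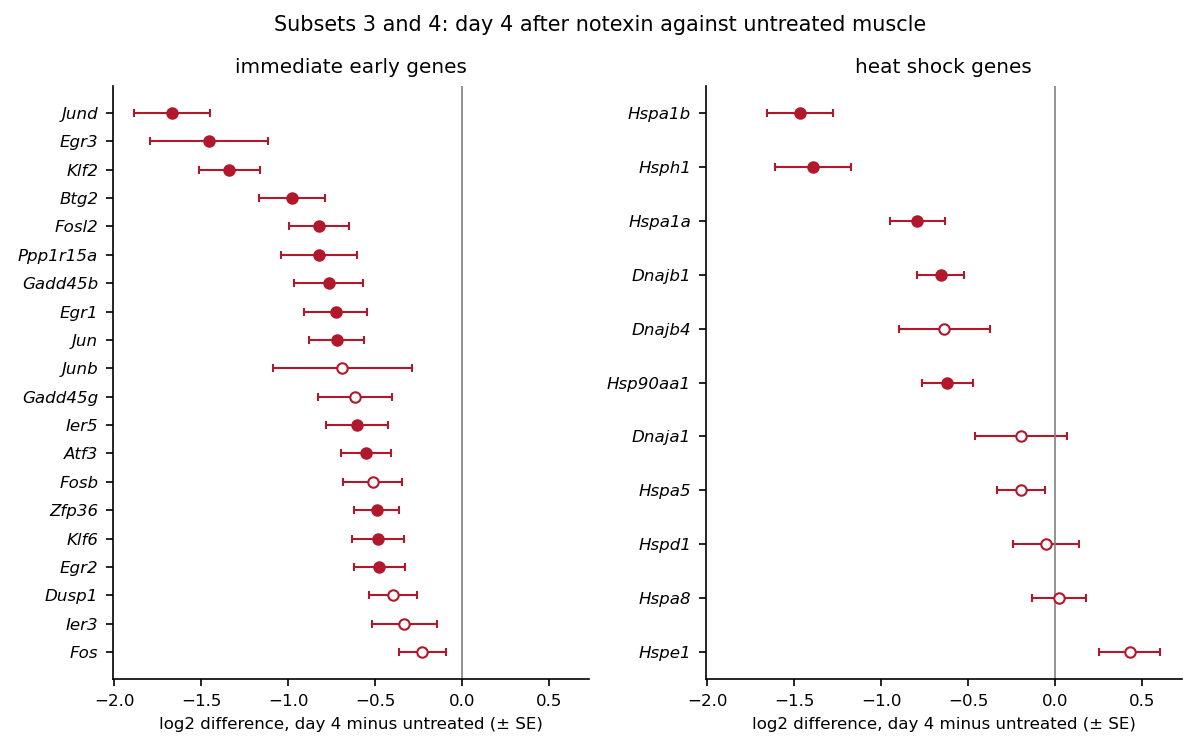
Log2 difference of day 4 minus untreated over subsets 3 and 4 for 20 immediate early genes (left) and 11 heat shock genes (right), with bars of 1 SE and filled points for an adjusted p under 0.05. All immediate early genes lie left of 0, from Fos at -0.23 to Jund at -1.67, and among heat shock genes Hspa8, Hspd1, Hspa5 and Dnaja1 lie near 0.

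Among the Jun proteins, Jund, a partner of Fos in AP-1, was lower on day 4 in both subsets. Jund read 7.17, 7.50, 7.49 and 6.21 in untreated subset 3 and 6.99, 7.28, 7.48 and 7.56 in untreated subset 4. On day 4 it read 5.77, 6.002, 5.47 and 4.89 in subset 3 and 6.08, 5.07, 5.90 and 5.15 in subset 4, where 3 and 2 of the 4 arrays were above background. Day-4 subset 1 read 5.24, 6.32, 5.68 and 5.67 and subset 2 5.99, 5.64, 4.75 and 5.01. The 8 untreated arrays all lay above the 8 day-4 arrays of subsets 3 and 4, and Jund fell by 1.67 ± 0.22 (SE, adjusted p = 1.7e-04). In all, 3 of 20 immediate early genes (Jund, Fosl2 and Btg2) and 2 of 11 heat shock genes (Hspa1b and Hsph1) were apart in this way. Of all probes, 1.1% were.

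Jun, the founding member of the family, was at 8.59, 8.70, 8.62 and 8.47 in untreated subset 3 and at 10.19, 10.33, 10.34 and 10.18 in untreated subset 4. Day-4 arrays read 8.99, 8.90, 8.09 and 8.30 in subset 3 and 9.06, 8.65, 8.84 and 8.81 in subset 4. The 4 untreated subset 4 arrays therefore stood above the other 12, which overlapped. Jun fell by 0.72 ± 0.16 (SE, adjusted p = 0.00757) over both subsets, but the change was -0.02 ± 0.41 (SD over strains) in subset 3 and -1.42 ± 0.23 in subset 4. That gap between the subsets was itself called, with a difference of differences of -1.40 ± 0.31 (SE, adjusted p = 0.0269), and Jun was the only member called for it, while 7.66% of probes were called in either direction. The call rests on each strain, since the adjusted p rose to at most 0.155 when 1 strain was left out, and it was past the threshold in none of those 4 fits. Of the 31 members, Jun included, 7 had an unadjusted p under 0.05, where 30.1% of all probes did.

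Junb, the third Jun protein, varied within groups. Junb read 6.22, 10.77, 5.90 and 9.996 in day-4 subset 2, 5.97, 7.75, 5.60 and 7.70 in day-4 subset 4 and 6.76, 6.72, 7.14 and 9.96 in untreated subset 4. It read 5.93, 6.68, 6.77 and 6.56 in day-4 subset 1, 6.75, 6.42, 6.07 and 5.74 in day-4 subset 3 and 6.86, 7.10, 5.30 and 7.65 in untreated subset 3. The high values came from Cx3cr1-/- and Cx3cr1-/-Ccl2-/- arrays, in day-4 subset 2 from those of low detection, and no comparison called Junb. In day-4 subset 4 the Cx3cr1-/- array, at 7.75, was of low detection as well, and the Cx3cr1-/-Ccl2-/- array, at 7.70, was not.

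Fos, the partner of the Jun proteins in AP-1, did not pass the test. It read 11.14, 11.25, 10.87 and 10.96 in day-4 subset 1, 10.40, 10.90, 10.15 and 10.77 in subset 2, 10.89, 11.11, 10.48 and 10.55 in subset 3 and 10.56, 11.10, 10.74 and 10.60 in subset 4. In untreated muscle it read 10.63, 11.0002, 10.57 and 10.54 in subset 3 and 11.21, 11.45, 11.25 and 11.22 in subset 4. Its difference between day 4 and untreated was -0.23 ± 0.13 (SE, adjusted p = 0.317), with 0.07 ± 0.14 (SD over strains) in subset 3 and -0.53 ± 0.13 in subset 4. The partner gene Fosl2 fell by 0.82 ± 0.17 (SE, adjusted p = 0.00587), and its other 2 probes fell by 2.08 and 1.80, while Fosb differed by -0.52 ± 0.17 (SE, adjusted p = 0.0618).

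All 3 Egr factors, which act downstream of growth and stress signals, were lower on day 4. Egr1 read 12.16, 12.26, 11.95 and 12.03 in untreated subset 3 and 12.99, 13.03, 13.03 and 12.68 in untreated subset 4, against 11.40, 11.91, 10.77 and 11.26 and 12.12, 12.02, 12.75 and 12.11 on day 4. It was lower on day 4 in all 8 pairs of arrays of the same strain and subset, and it fell by 0.73 ± 0.18 (SE, adjusted p = 0.0165). Those 8 pairs come from 4 strains, the subsets of a pool being from the same mice. With 1 value per pool Egr1 was not called. Egr3 read 7.08, 7.87, 7.42 and 8.04 in untreated subset 3 and 8.09, 8.44, 8.61 and 7.81 in untreated subset 4. On day 4 it read 6.11, 6.06, 5.72 and 6.43 in subset 3 and 7.04, 4.90, 8.08 and 7.38 in subset 4, the Cx3cr1-/- array of subset 4 being at background and of low detection. Egr3 fell by 1.46 ± 0.34 (SE, adjusted p = 0.0115), and Egr2 fell by 0.48 ± 0.15 (SE, adjusted p = 0.0474).

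Klf2, a zinc finger factor that holds macrophages quiescent, was at 8.41, 8.50, 7.88 and 8.08 in untreated subset 3 and at 9.39, 9.46, 9.08 and 9.26 in untreated subset 4. On day 4 Klf2 read 7.33, 7.94, 6.46 and 6.55 in subset 3 and 7.59, 7.91, 7.49 and 8.06 in subset 4. Day-4 subsets 1 and 2, at 7.40, 7.33, 6.28 and 6.27 and 7.39, 6.85, 5.83 and 7.10, were below every untreated array. Every day-4 array of subsets 3 and 4 was below its untreated partner, and Klf2 fell by 1.34 ± 0.18 (SE, adjusted p = 1.9e-04). Klf6, of the same family, fell by 0.48 ± 0.15 (SE, adjusted p = 0.0498), a call at the edge of the threshold. A dimmer probe of Klf6 fell by 1.16 (adjusted p = 6.5e-04).

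**Figure D3:**
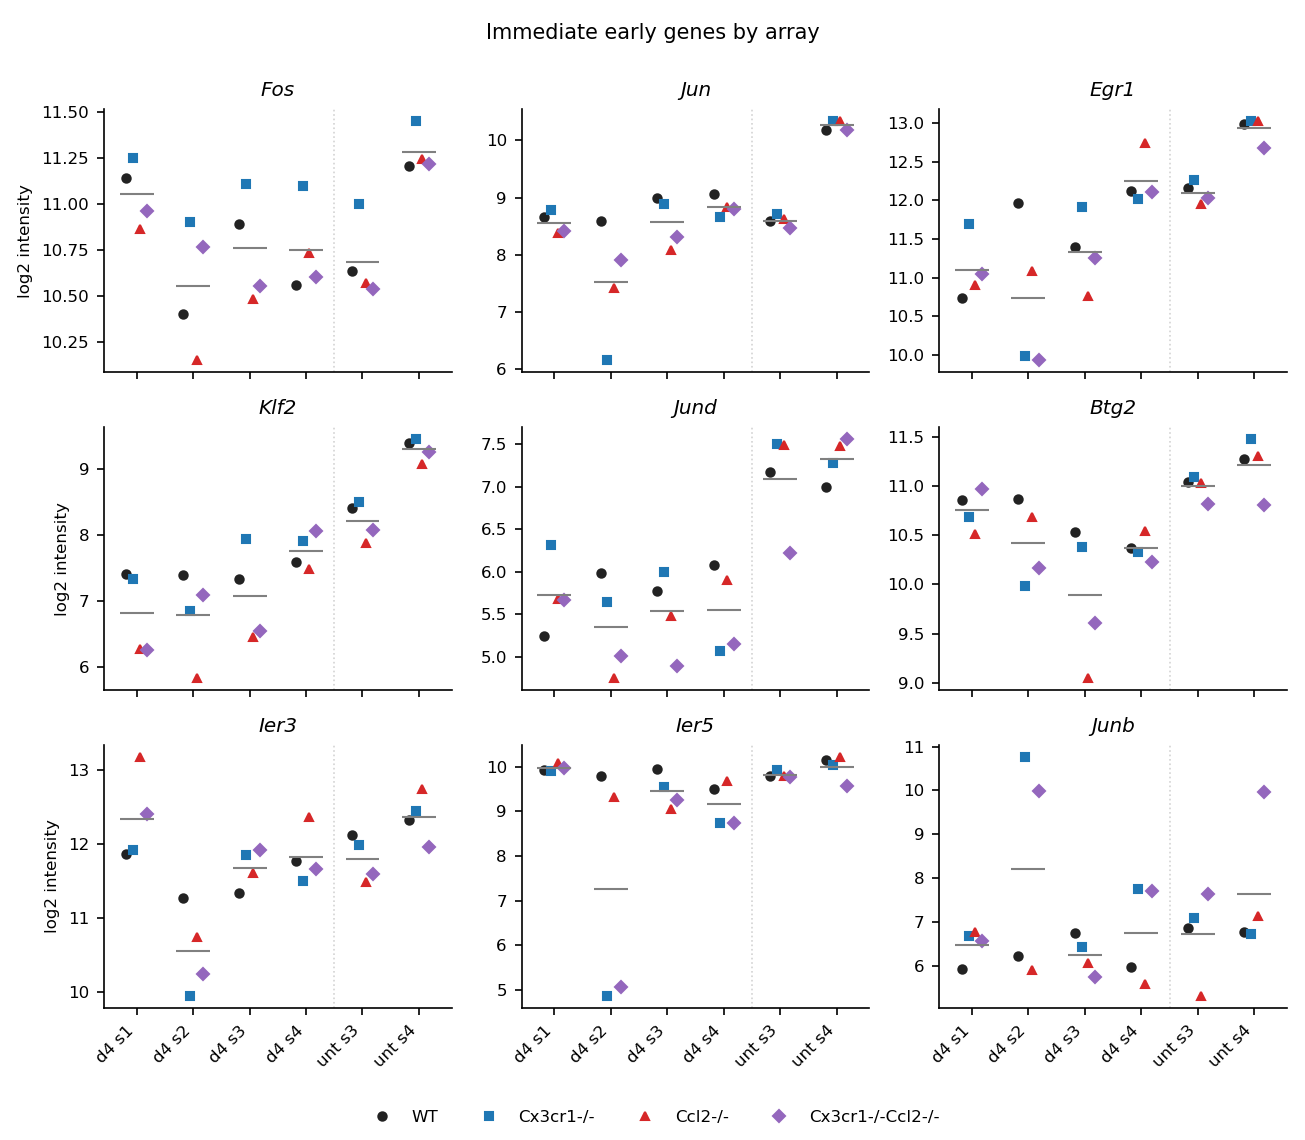
Log2 intensity of 9 immediate early genes in the 24 arrays, by group (d4, day 4; unt, untreated; s, subset), with a symbol per strain and a grey line at the mean of 4 arrays; the vertical axes differ and do not start at 0. Jun, Egr1 and Klf2 were highest in untreated subset 4, Jund and Btg2 were higher in both untreated subsets than in day-4 subsets 3 and 4, and Ier5 and Junb were split within day-4 subset 2.

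The genes that end the response were in part lower as well. Btg2, an antiproliferative factor, fell by 0.98 ± 0.19 (SE, adjusted p = 0.00363), with its untreated arrays at 10.81 to 11.48 and its day-4 arrays at 9.04 to 10.54. Zfp36, which encodes the RNA-decay factor tristetraprolin, fell by 0.49 ± 0.13 (SE, adjusted p = 0.0247), and Atf3, a repressor of inflammatory genes, fell by 0.55 ± 0.14 (SE, adjusted p = 0.0198). Dusp1, a phosphatase that turns off MAP kinases, differed by -0.40 ± 0.14 (SE, adjusted p = 0.0833). Gadd45b, a stress-signalling factor, fell by 0.77 ± 0.20 (SE, adjusted p = 0.0209), with -1.39 ± 0.62 (SD over strains) in subset 3 and -0.15 ± 0.49 in subset 4. Its relative Gadd45g differed by -0.62 ± 0.21 (SE, adjusted p = 0.078), and a dimmer probe of that gene fell by 0.84 (adjusted p = 0.0369).

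Ppp1r15a, which encodes the stress-induced phosphatase subunit Gadd34, read 8.62, 9.04, 8.65 and 8.67 in untreated subset 3 and 9.17, 9.36, 9.43 and 9.81 in untreated subset 4. On day 4 it read 7.69, 8.59, 7.44 and 6.84 in subset 3 and 8.40, 9.76, 8.39 and 9.06 in subset 4. It read 8.21, 8.20, 8.03 and 7.88 in day-4 subset 1 and 8.56, 10.55, 7.86 and 9.81 in day-4 subset 2. The groups overlapped, and Ppp1r15a fell by 0.82 ± 0.22 (SE, adjusted p = 0.0228). The Cx3cr1-/- arrays of day-4 subsets 2 and 4 were high, and both were of low detection. So was the Cx3cr1-/-Ccl2-/- array of day-4 subset 2, at 9.81. 

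Ier5, a target and helper of Hsf1, read 9.80, 9.93, 9.80 and 9.78 in untreated subset 3 and 10.16, 10.05, 10.23 and 9.56 in untreated subset 4. On day 4 it read 9.96, 9.55, 9.06 and 9.26 in subset 3 and 9.50, 8.74, 9.67 and 8.73 in subset 4, overlapping the untreated arrays. Ier5 fell by 0.61 ± 0.18 (SE, adjusted p = 0.0386). Ier3, an antiapoptotic stress gene, read 12.12, 11.99, 11.49 and 11.59 in untreated subset 3 and 12.33, 12.45, 12.75 and 11.95 in untreated subset 4, and differed by -0.33 ± 0.19 (SE, adjusted p = 0.293).

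A single immediate early gene went the other way and was outside the main test. Dusp2, a phosphatase of activated leukocytes, was not above background in any untreated array, and read 7.50, 7.23, 7.22 and 6.86 in day-4 subset 1 and 6.88, 7.25, 6.003 and 5.38 in day-4 subset 3. In day-4 subset 4 it read 5.78, 4.82, 5.21 and 4.70, with 1 array above background, and in day-4 subset 2 7.99, 4.84, 6.80 and 4.89, with 2. The untreated arrays read 5.16, 4.99, 4.79 and 4.86 in subset 3 and 4.98, 4.70, 4.65 and 4.63 in subset 4. Set against the lowest signal above background on the untreated arrays, the mean of day-4 subset 3 was at least 1.84-fold higher than that of untreated subset 3. Dusp2 was above background in too few of the 16 arrays to enter the main test. With no detection filter, 1 immediate early gene was called higher on day 4, in a fit that called 3.88% of all probes in either direction.

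The 5 heat shock genes that passed the test were Hspa1a, Hspa1b, Hsph1, Dnajb1 and Hsp90aa1. Hspa1b, which encodes inducible Hsp70, read 9.81, 9.56, 9.41 and 9.43 in untreated subset 3 and 10.56, 10.48, 9.99 and 9.94 in untreated subset 4. It read 9.33, 9.05, 7.32 and 8.03 in day-4 subset 3 and 9.13, 8.46, 8.15 and 7.98 in day-4 subset 4, below every untreated array. Hspa1b fell by 1.47 ± 0.19 (SE, adjusted p = 1.7e-04), or 2.76-fold.

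Hspa1a, the twin gene, was at 11.23, 11.32, 10.98 and 11.04 in untreated subset 3 and at 11.79, 11.95, 11.70 and 11.78 in untreated subset 4, and at 11.06, 11.16, 9.92 and 10.24 and 11.15, 11.14, 10.43 and 10.35 in these subsets on day 4. It was lower on day 4 in 8 of 8 pairs and fell by 0.79 ± 0.16 (SE, adjusted p = 0.00482), a call that was lost with 1 value per pool. Another probe named for Hspa1a fell by 1.47, as the Hspa1b probe did. The 2 genes are near-identical copies, so which of them a probe read is uncertain, and their main probes went together over the 24 arrays at r = 0.86 and rho = 0.85.

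Hsph1, which encodes the Hsp110 exchange factor of Hsp70, read 9.89, 9.50, 9.65 and 9.87 in untreated subset 3 and 10.22, 10.65, 9.90 and 9.88 in untreated subset 4. On day 4 it read 8.80, 9.13, 8.97 and 9.07 in subset 3 and 9.004, 7.54, 8.44 and 7.49 in subset 4. All day-4 values were below all untreated ones, and Hsph1 fell by 1.39 ± 0.22 (SE, adjusted p = 8.0e-04), with -0.73 ± 0.30 (SD over strains) in subset 3 and -2.04 ± 0.87 in subset 4. Day-4 subset 1 read 9.05, 9.48, 8.78 and 9.08.

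Dnajb1, the Hsp40 that delivers clients to Hsp70, read 10.98, 10.97, 11.10 and 11.10 and 11.72, 11.85, 11.78 and 11.60 in untreated subsets 3 and 4, and 10.58, 10.87, 10.57 and 10.62 and 11.02, 10.72, 10.77 and 10.69 on day 4. It was lower in 8 of 8 pairs and fell by 0.66 ± 0.14 (SE, adjusted p = 0.00548), a call that was lost with 1 value per pool. Day-4 subset 1 read 10.73, 11.04, 10.69 and 10.73 and subset 2 11.40, 9.61, 10.76 and 10.26. The Cx3cr1-/- array was high in subset 1 and low in subset 2, where it was of low detection. Hsp90aa1, the inducible Hsp90, fell by 0.62 ± 0.15 (SE, adjusted p = 0.0126).

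**Figure D4:**
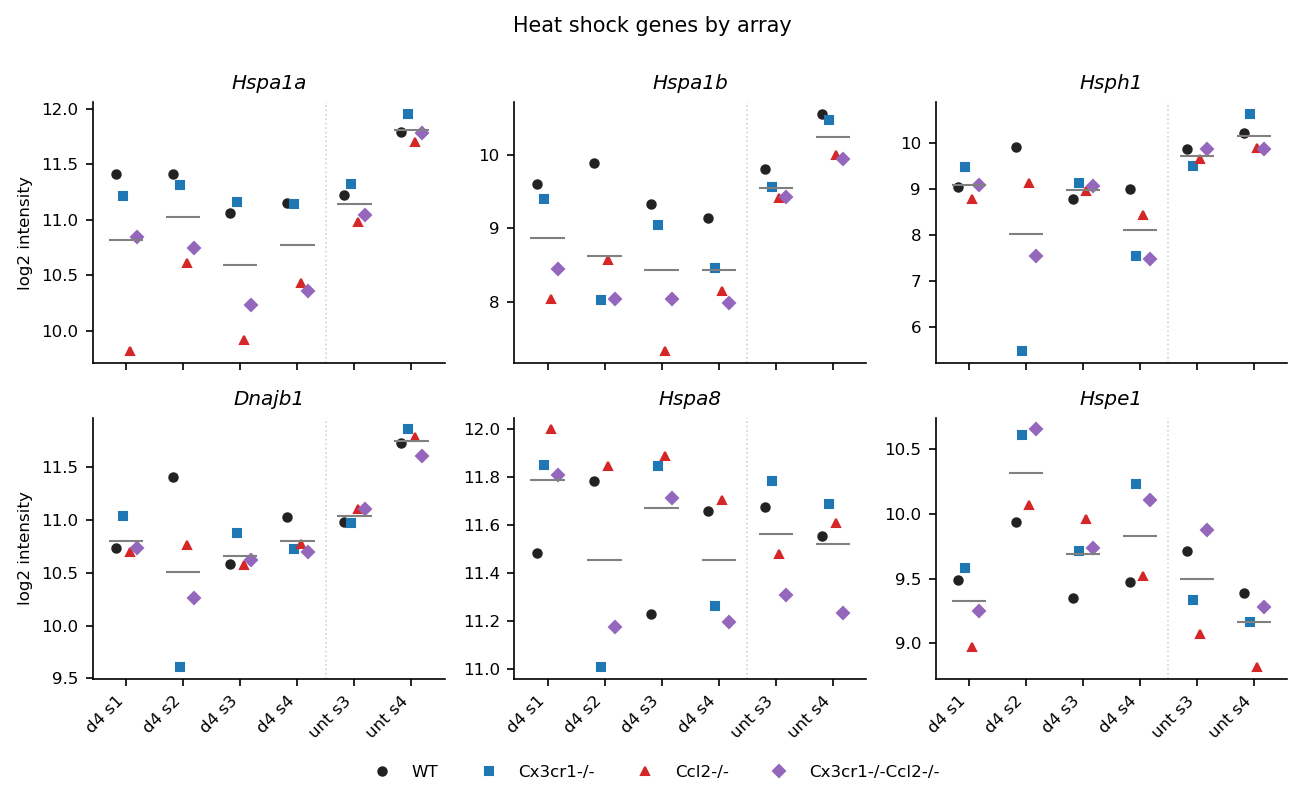
Log2 intensity of 6 heat shock genes in the 24 arrays, by group (d4, day 4; unt, untreated; s, subset), with a symbol per strain and a grey line at the mean of 4 arrays; the vertical axes differ and do not start at 0. For the probes shown, the group means of Hspa1a, Hspa1b, Hsph1 and Dnajb1 were highest in untreated subset 4. Those of Hspa8 and Hspe1 were not. A dimmer probe of Hspa1a and of Hspa1b each averaged 8.36 in day-4 subset 2, above 7.84 and 7.91 in untreated subset 4. Another Hspa1a probe was highest in untreated subset 4 (9.68), as was an Hspa8 probe (11.77). The remaining Hspa8 probe was highest in day-4 subset 1 (11.69).

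The other 6 heat shock genes did not pass the test. Hspa8, the constitutive Hsp70, differed by 0.02 ± 0.16 (SE, adjusted p = 0.957), and Hspa5, the chaperone BiP of the endoplasmic reticulum, by -0.19 ± 0.14 (SE, adjusted p = 0.426). The mitochondrial pair Hspd1 and Hspe1, which encode Hsp60 and Hsp10, differed by -0.05 ± 0.19 (SE, adjusted p = 0.905) and 0.43 ± 0.18 (SE, adjusted p = 0.138). Dnaja1 and Dnajb4, both of the Hsp40 family, were dim.

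Dnaja1 read 5.09, 4.93, 5.15 and 4.96 in day-4 subset 1, 5.85, 7.71, 5.26 and 6.60 in subset 2, 5.37, 5.12, 5.25 and 5.17 in subset 3 and 4.99, 7.05, 5.13 and 4.93 in subset 4. In untreated muscle it read 6.04, 5.45, 5.74 and 4.80 in subset 3 and 5.40, 5.68, 5.69 and 5.77 in subset 4. It was above background in 14 of 24 arrays, and it differed by -0.20 ± 0.27 (SE, adjusted p = 0.713). Its high values were in the Cx3cr1-/- arrays of day-4 subsets 2 and 4, both of low detection. Dnajb4 was at 5.75, 6.15, 5.24 and 6.85 in untreated subset 3 and at 6.91, 6.84, 6.90 and 6.24 in untreated subset 4, against 6.47, 6.21, 5.94 and 5.86 and 6.09, 4.60, 5.75 and 4.88 on day 4, with 2 arrays of day-4 subset 4 at background, and differed by -0.64 ± 0.26 (SE, adjusted p = 0.141). Day-4 subset 1 read 5.71, 5.54, 6.93 and 5.78 and subset 2 6.09, 4.55, 5.91 and 4.57, the 2 arrays of low detection being at background.

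The calls for day 4 against untreated held unevenly. Jund, Btg2, Klf2, Hspa1b and Hsph1 passed under every alternative in which their probe was tested, Jund being untested where detection in every array was required. Of the 19 genes, 6 passed when arrays were scaled to 1 median instead of quantile-normalized, and 7 when each pool of mice gave 1 value. Of all probes, 7.56% and 6.36% were then called in either direction, against 11.8% in the main fit. When a strain's arrays were dropped, 5 genes were called with the Cx3cr1-/-Ccl2-/- arrays out, 9 with WT out and 12 with Ccl2-/- out, all among the 19, and 15 with Cx3cr1-/- out, 14 of them among the 19. In that order, 5.45%, 6.98%, 7.85% and 9.61% of all probes were called in these fits.

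Other genes of the same programmes were counted from lists fixed alongside the members. Among 35 further early response genes tested, 15 were lower on day 4 and 3 were higher, with a median of -0.55. These and the next counts stand against 6.61% of all probes lower and 5.24% higher. The widest-ranging of them were Hbegf, a growth factor (-1.04 ± 0.27 SE, adjusted p = 0.0205), the nuclear receptor Nr4a3 (-1.28 ± 0.20, adjusted p = 8.6e-04), the matrix protein gene Cyr61 (-1.78 ± 0.25, adjusted p = 4.0e-04), the phosphatase Dusp4, which was higher (1.66 ± 0.34, adjusted p = 0.00542), and Rhob (-0.19 ± 0.15, adjusted p = 0.471). Among 24 further chaperones and cochaperones, 3 were lower and none higher, with a median of 0.0031, and among 15 genes of the unfolded protein response of the endoplasmic reticulum 3 were lower, with a median of -0.21. The 3 early response genes that were higher were Dusp4, the kinase gene Sgk1 (1.62 ± 0.22, adjusted p = 2.3e-04) and the G protein regulator Rgs1 (0.91 ± 0.19, adjusted p = 0.00534), the last 2 named after their values were seen. The lowered chaperones were Hspa2, Dnajb9 and Bag3, the last a cochaperone of Hsp70 and known target of Hsf1, and the lowered stress genes were the factors Ddit3 and Atf4 and the degradation gene Herpud1. Of 10 kinases and factors upstream of these programmes, Elk4, a partner of Srf, was lower (-0.86 ± 0.25, adjusted p = 0.0351) and none was higher. Bag3, Herpud1, Atf4 and Elk4 were also named after their values were seen.

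Within untreated muscle, Mgl1high macrophages (subset 4) were compared with Mgl1low cells (subset 3). Of 31 members tested, 4 of 20 immediate early genes and 2 of 11 heat shock genes were higher in subset 4, where 6.63% of all probes were, and none was lower, where 3.44% were. Jun was higher by 1.67 ± 0.18 (SE, adjusted p = 5.8e-04), or 3.17-fold, Klf2 by 1.08 ± 0.21 (SE, adjusted p = 0.0104), Egr1 by 0.83 ± 0.19 (SE, adjusted p = 0.0207) and Atf3 by 0.67 ± 0.18 (SE, adjusted p = 0.0367). Of the heat shock genes, Dnajb1 was higher by 0.70 ± 0.18 (SE, adjusted p = 0.0333) and Hspa1a by 0.67 ± 0.19 (SE, adjusted p = 0.0492). All 4 arrays of subset 4 lay above all 4 of subset 3 for 7 of 20 immediate early genes (Fos, Fosb, Jun, Egr1, Atf3, Klf2 and Ppp1r15a). The same held for 5 of 11 heat shock genes (Hspa1a, Hspa1b, Hspa5, Hsp90aa1 and Dnajb1), against 11.4% of all probes.

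Fosl2 and Gadd45b were lower in subset 4 than in subset 3 in all 4 strains, without a call, and so was Hspe1. The dimmer Fosl2 probes averaged 9.78 and 9.24 in subset 3 and 8.95 and 8.35 in subset 4. With the mean of a gene's detected probes 7 members were called, with 11% of all probes, and 1 immediate early gene among them was lower in subset 4. The median difference was 0.47 over the immediate early and 0.44 over the heat shock genes, against 0.05 over all probes tested. Of the 35 further early response genes, 7 were higher and 3 lower in subset 4, with a median of 0.15. Of 25 further chaperones, 2 were higher and 0 lower, with a median of 0.02. Of all probes, 6.63% were higher and 3.44% lower. The subsets of a strain were taken to come from the same pool, and with the pool as a block 3 genes were called, Jun, Egr1 and Klf2. Jun passed in every alternative run. Dropping the Ccl2-/- arrays left 2 calls, with 7.18% of all probes called. Dropping WT, Cx3cr1-/- or Cx3cr1-/-Ccl2-/- left 1, with 5.28%, 4.34% and 4.53% of all probes called, against 10.1% in the main fit. Without background correction 12 were called, with 11.2% of all probes. Without the arrays of low detection Hspa1a missed the threshold, at 0.61 ± 0.19 (SE, adjusted p = 0.0599). The fibroblast and muscle fibre sums given above also differed between these 2 subsets.

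The 4 subsets of day 4 were compared to ask whether monocyte and macrophage subsets of injured muscle differ in these genes. In the test of any difference between subsets, 1 of 32 members was called, Ier3, where 10.4% of all probes were. At an unadjusted p under 0.05 there were 9, where 32.8% of all probes were. Of the 35 further early response genes, however, 17 were called in this test. Their median range of subset means was 1.33, against 0.96 over the immediate early members and 0.91 over all probes tested. Of 24 further chaperones and 15 genes of the unfolded protein response, 0 were called. The probes followed for Fosl2 (range 0.95, adjusted p = 0.23) and Gadd45b (0.85, adjusted p = 0.252) were not called. Dimmer probes were, for Fosl2 with 2.26 (adjusted p = 0.00157) and 2.08 (adjusted p = 0.00207) and for Gadd45b with 1.52 (adjusted p = 0.0387). Ier3 read 11.87, 11.92, 13.18 and 12.40 in subset 1, 11.26, 9.94, 10.74 and 10.24 in subset 2, 11.33, 11.85, 11.61 and 11.92 in subset 3 and 11.77, 11.50, 12.36 and 11.66 in subset 4. Subset 2 was the lowest and did not overlap with the others, and the highest and lowest subset means differed by 1.80 (adjusted p = 0.0158). With the pool as a block, 3 members and 19.2% of all probes were called. Without the arrays of low detection Ier3 missed the threshold (range 1.34, adjusted p = 0.0526), and Egr1 (1.23, adjusted p = 0.0455), Egr3 (2.49, adjusted p = 7.5e-04) and Dusp2 (2.16, adjusted p = 0.00952) passed it, as did 18% of all probes.

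Subset 2, the F4/80low Ly6Clow cells, was compared with the other 3 subsets. It gave 3 of 21 immediate early genes lower, where 10.2% of probes were, and 1 of 11 heat shock genes higher, where 4.44% were. In either direction 4 of 32 members were called, against 14.7% of all probes. Of the 35 further early response genes, 6 were lower and 5 higher. Ier3 differed by -1.40 ± 0.28 (SE, adjusted p = 0.00483). Jun read 8.65, 8.78, 8.38 and 8.42 in subset 1 and 8.59, 6.15, 7.42 and 7.92 in subset 2, a difference from the other 3 of -1.13 ± 0.32 (SE, adjusted p = 0.0299). Ier5 read 9.93, 9.90, 10.10 and 9.98 in subset 1 and 9.79, 4.85, 9.33 and 5.05 in subset 2, a difference of -2.28 ± 0.68 (SE, adjusted p = 0.037).

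Ier5 was thus high in WT and Ccl2-/- cells and at background in the 2 arrays of low detection. Hsph1 was low in the same 2 arrays, at 9.91, 5.47, 9.14 and 7.55. Hspe1, the mitochondrial cochaperone, was at 9.94, 10.61, 10.07 and 10.65 in subset 2 against 9.49, 9.58, 8.97 and 9.25 in subset 1, and was higher by 0.70 ± 0.23 (SE, adjusted p = 0.0474) than in the other 3 subsets. Without the arrays of low detection none of these 4 calls remained, the differences being -0.98 for Ier3 (adjusted p = 0.0684), -0.67 for Jun (adjusted p = 0.189), -0.02 for Ier5 (adjusted p = 0.977) and 0.43 for Hspe1 (adjusted p = 0.308). Egr3 was then the only member called in subset 2, where 6.92% of probes were, higher by 1.65 ± 0.35 (SE, adjusted p = 0.00854). Over all arrays it read 8.15, 4.40, 7.88 and 4.76 in subset 2 and 4.97, 4.83, 6.27 and 6.03 in subset 1.

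With the pool as a block, 10 members were called in subset 2, 5 immediate early genes lower, 2 higher and 3 heat shock genes higher, in a fit that called 23.3% of all probes in either direction. Dropping the WT arrays gave 4 calls, 3 of them among the 4 above, dropping Ccl2-/- gave 2 and dropping Cx3cr1-/- gave 1, all among the 4, and dropping Cx3cr1-/-Ccl2-/- gave 0. In that order, 12.5%, 12.9%, 6.82% and 2.08% of all probes were called in either direction, against 14.7% in the main fit.

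No member was called for subset 1, subset 3 or subset 4 against the other 3 subsets of day 4, where 1.35%, 1.02% and 2.28% of all probes were called in either direction. At an unadjusted p under 0.05 there were 4, 3 and 3 of 32 members, against 13.7%, 17.2% and 15.9% of all probes. The nearest in subset 1, the Ly6Chigh monocytes, were Ier3 with 0.99 ± 0.28 (SE, adjusted p = 0.0936) and Dusp2 with 1.32 ± 0.48 (SE, adjusted p = 0.198). In subset 3, Ppp1r15a was the nearest, with -1.09 ± 0.41 (SE, adjusted p = 0.203). Egr1 came nearest in subset 4, with 1.20 ± 0.33 (SE, adjusted p = 0.0798), from 12.12, 12.02, 12.75 and 12.11 against 10.73, 11.70, 10.90 and 11.04 in subset 1 and 11.96, 9.98, 11.09 and 9.93 in subset 2. Without the arrays of low detection Egr1 was called higher in subset 4, by 1.01 ± 0.27 (SE, adjusted p = 0.0326), and Dusp2 was called lower there, with -1.76 ± 0.35 (SE, adjusted p = 0.00633), while Egr3 was called lower in subset 1, with -1.67 ± 0.27 (SE, adjusted p = 0.00179). In these fits 8.17% and 7.16% of all probes were called in subsets 4 and 1.

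Strain was compared over the 16 day-4 arrays, with subset in the fit, to ask how loss of each gene went with the members. Each strain is 1 pool of mice on day 4, so strain and pool cannot be told apart, and p measures how alike the subsets of a pool were. No member was called for Cx3cr1 deficiency, where 0.0326% of all probes were, or for Ccl2 deficiency, where 0.0718% were. At an unadjusted p under 0.05 there were 8 and 6 of 32 members, against 25.6% and 12.5% of all probes. With loss of Cx3cr1 the nearest were Dnajb4 with -0.87 ± 0.24 (SE, adjusted p = 0.132) and Fosb with 0.65 ± 0.18 (SE, adjusted p = 0.132), and 3 of the 4 arrays of low detection are from Cx3cr1-deficient pools on day 4.

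With loss of Ccl2 both inducible Hsp70 genes came nearest. In subsets 1 to 4 together, Hspa1a averaged 11.26 ± 0.18 (SD over 4 subsets) in WT, 11.21 ± 0.08 in Cx3cr1-/-, 10.20 ± 0.39 in Ccl2-/- and 10.55 ± 0.30 in Cx3cr1-/-Ccl2-/- cells. The single arrays were 11.41, 11.21, 9.82 and 10.84 in subset 1 and 11.41, 11.31, 10.61 and 10.75 in subset 2, beside the values of subsets 3 and 4 given above. All 8 Ccl2-deficient arrays, at 9.82 to 10.84, lay below all 8 others, at 11.06 to 11.41. Hspa1a was the 1 member of 32 set apart in this way, as were 0.163% of all probes, and its difference was -0.86 ± 0.17 (SE, adjusted p = 0.0878).

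Hspa1b averaged 9.49 ± 0.33 in WT, 8.73 ± 0.61 in Cx3cr1-/-, 8.02 ± 0.52 in Ccl2-/- and 8.13 ± 0.22 in Cx3cr1-/-Ccl2-/- cells. It read 9.60, 9.40, 8.03 and 8.45 in subset 1 and 9.89, 8.02, 8.57 and 8.04 in subset 2. Here Cx3cr1-/- cells lay between WT and the rest and overlapped with them, and the difference with loss of Ccl2 was -1.04 ± 0.23 (SE, adjusted p = 0.106). Without the arrays of low detection both passed, Hspa1a with -0.90 ± 0.17 (SE, adjusted p = 0.0153) and Hspa1b with -1.26 ± 0.17 (SE, adjusted p = 0.00389), together with Klf2 (-0.96, adjusted p = 0.0296) and Dusp2 (-0.93, adjusted p = 0.0242), in a fit that called 3.19% of all probes. In untreated muscle the Hspa1a arrays of Ccl2-deficient pools, at 10.98 and 11.04 in subset 3 and 11.70 and 11.78 in subset 4, were each below the 2 arrays with Ccl2, at 11.23 and 11.32 and at 11.79 and 11.95, without a test.

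**Figure D5:**
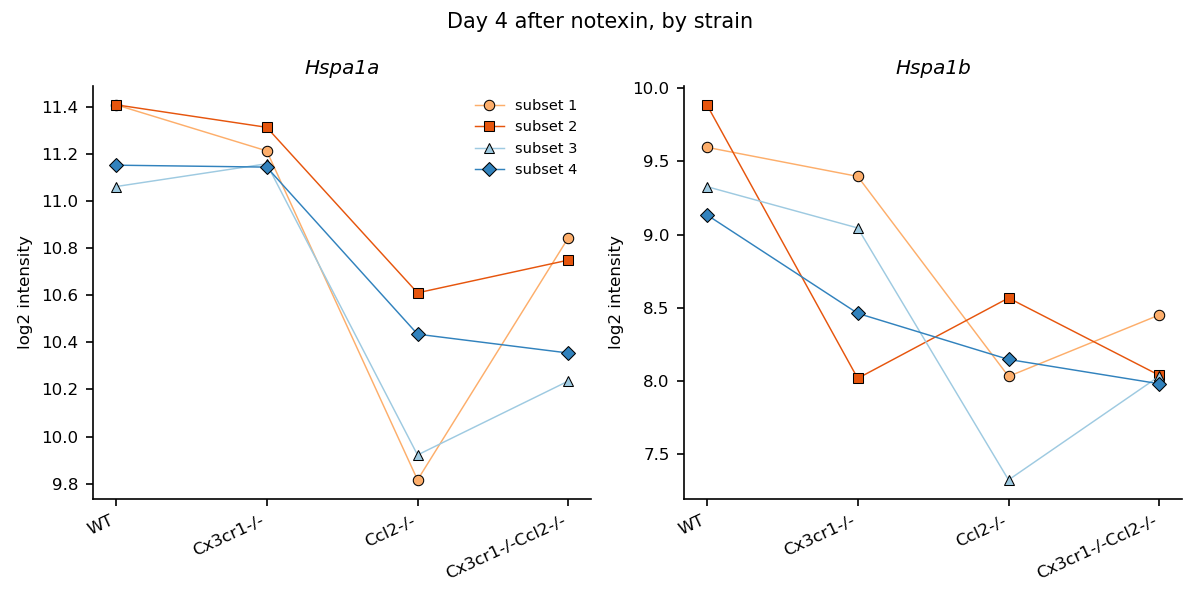
Log2 intensity of Hspa1a (left) and Hspa1b (right) on day 4 by strain, 1 line per subset; the vertical axes differ and do not start at 0. Hspa1a was lower in both Ccl2-deficient strains in every subset, from 9.82 to 10.84 against 11.06 to 11.41, while the Cx3cr1-/- values of Hspa1b spread from 8.02 to 9.40.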

How the data were processed

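Per the labels and the study's methods, RNA was amplified (NuGEN Ovation Pico WTA V2) and hybridised to Illumina whole mouse genome arrays. The authors deposited, for 24 arrays, a linear intensity per probe that was not normalized, with a detection p-value. They also deposited processed intensities, which were quantile-normalized values within 0.0276 log2 units. GenomeStudio is named in the submitters' notes without its version.

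Intensities were corrected and normalized with neqc in limma 3.58.1 (R 4.3.3; offset 16, quantile) and taken to log2. The platform table pairs 34885 of 45281 probes with a single gene, 18 with more than 1 and 10378 with no gene. Probes detected in at least 8 of 16 or 4 of 8 arrays of a fit were fitted with lmFit and eBayes. Day 4 against untreated fitted condition, subset, their interaction and strain. Subsets were compared with strains as replicates, and strains with subset as a term. Benjamini-Hochberg adjustment ran over all probes tested. Every array is given for the 10 immediate early and 5 heat shock genes with the widest range of group means and for Fos, Jun, Egr1, Hspa1a and Hspa1b, and from other lists at most 5 genes by the same range. Members, lists and rules were chosen with earlier results of these data known. The fits were tested on simulated data. Arrays of a pool paired by design: their deviations from group means correlated at a median of 0.164 in 28 pairs (range -0.00345 to 0.437), against -0.0628 between pools. No 2 arrays held the same values. Their number, with 1 pool behind each, limits the precision, and p-values measure only the spread between these samples.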

Additional observations from a re-analysis of the deposited data

Results flagged for a closer look

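In 14 of 192 sets of 4 arrays, 1 array lay far from the others by Dixon's ratio, and chance alone flags about 1 in 20. The Cx3cr1-/- array stood apart for Fos in untreated subset 4 (11.45), for Ier5 (9.93) and Ppp1r15a (9.04) in untreated subset 3, for Gadd45b in day-4 subset 3 (8.37), for Hspd1 in day-4 subset 2 (9.59), for Dnaja1 in day-4 subset 4 (7.05), and for Dnajb1 in day-4 subset 1 (11.04) and subset 3 (10.87). The Cx3cr1-/-Ccl2-/- array of untreated subset 4 stood apart for Junb (9.96), Egr1 (12.68), Klf6 (12.42) and Dnajb4 (6.24). The Ccl2-/- array stood apart for Egr1 in day-4 subset 4 (12.75), and the WT array for Hspa5 in untreated subset 3 (10.51). The arrays flagged for Hspd1 and Dnaja1 were of low detection.

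The difference of subset 4 against subset 3 was not the same on day 4 and in untreated muscle for Jun, by -1.40 (limma adjusted p = 0.0269).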

How the results depend on the processing

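No difference called in the main fits, with the probe followed for a gene, changed direction under any alternative in which it was tested. Differences called only in other fits or with other probes were not followed through all alternatives. Nor were differences that were not called, and Hspa8, at 0.02 for day 4 against untreated, was at -0.05 and -0.37 in its other 2 probes. Counts of called members are given against those above. The test of any difference between day-4 subsets gave 3 with each of 8 alternatives (no background correction, median scaling, the authors' processed values, detection in every array, a trended prior variance, the pool as a block, the arrays of low detection left out, and the mean of a gene's probes). Subset 1 gave 1 with the trend and 1 without the arrays of low detection. Subset 2 gave 10 with the replicate block, 1 without the arrays of low detection and 7 with probe means. Subset 4 gave 1 with the trend, 2 without the arrays of low detection and 1 with probe means. Untreated subset 4 against 3 gave 12 without background correction, 2 with median scaling, 12 with the authors' values, 11 with the trend and 3 with the block. In that order, 11.2%, 9.28%, 11.2%, 11.6% and 9.5% of all probes were called. With probe means it gave 7, of which 1 immediate early gene was lower. Day 4 against untreated gave 6 with median scaling and 7 with 1 value per pool, and 16 with the block, where 7.56%, 6.36% and 10.4% of all probes were called. With no filter it gave 18, of which 1 immediate early gene was higher, with 3.88% of all probes called. The interaction gave 5 without background correction, 16 with median scaling, 5 with the authors' values, 3 with no filter, 4 with detection in every array and 5 with the trend. Cx3cr1 deficiency gave 21 with median scaling. Median scaling called 49.5% of all probes for Cx3cr1 deficiency and 46.4% for the interaction. Ccl2 deficiency gave 2 without background correction, with the authors' values, with detection in every array and with probe means, 1 with no filter and with the trend, and 4 without the arrays of low detection. Without those arrays, 8 immediate early and 0 heat shock genes were lowest in day-4 subset 2, where 20.3% of probes were. Leaving out 1 strain, or 1 subset for the strain comparisons, gave 0 to 1 for any difference between subsets, 0 to 0 for subsets 1, 3 and 4, 0 to 4 for subset 2, 1 to 2 in untreated muscle, 5 to 15 for day 4 (9 without WT), 0 to 0 for the interaction and for Cx3cr1, and 0 to 1 for Ccl2. The cause was not tested.

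Median scaling moved the median of all probes, most in the interaction (from -0.26 to -1.16), subset 3 (0.15 to 0.72) and Cx3cr1 deficiency (-0.15 to -0.58), and the split of calls in subset 2 from 1 higher and 3 lower to 0 and 6. With a pool as 1 strain, strain could not be fitted beside a pool block. Dim probes (Dusp2, Dnaja1, Dnajb4, Jund, Egr3) were at background on some arrays.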
